A study of Mus musculus with 8 samples.

Results

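The 2 miRNAs described here, miR-383 and miR-218, changed in opposite directions in libraries of C2C12 mouse myoblasts. miR-383-5p was lower and miR-218-5p was higher in cells overexpressing ATF4, in cells with PERK knocked down, and in control cells 3 days into differentiation. The members were the 3 mature miRNAs mmu-miR-383-5p, mmu-miR-383-3p and mmu-miR-218-5p, found by name among 1978 mature miRNAs listed. They were selected on measured values of these data. Those were the fall of miR-383-5p and the rise of miR-218-5p with ATF4, and miR-383-5p falling most upon PERK knockdown at day 0. Values of those comparisons are therefore descriptions without a test. The knockdown comparisons at day 3 and in P19 cells were not used for the choice, while those over time share the day 0 libraries with it. The comparison at day 3 shares its lines with day 0.

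Small RNA was sequenced in 8 libraries, 1 per condition. C2C12 cells, a mouse skeletal myoblast line that fuses into myotubes in differentiation medium, were stable lentiviral lines carrying a hairpin against Perk (shPerk) or a negative control hairpin (shNC). Both lines were sampled at day 0 and day 3 of differentiation. Other C2C12 cells carried an ATF4 expression construct driven by an EF1α promoter or the empty vector, and were kept in growth medium. P19 cells, a mouse embryonal carcinoma line, carried the same kinds of hairpin, and a day of induction is not given for them in the sources used here. Because each condition was 1 library of 1 line, a difference between the lines and the effect of the hairpin or construct cannot be told apart.

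miRNAs are short RNAs cut as a pair of arms, 5p and 3p, from a hairpin precursor. The retained arm guides repression of mRNAs that pair with its seed, bases 2 to 8. PERK is a kinase of the endoplasmic reticulum that phosphorylates eIF2α under protein-folding stress, and ATF4 is the transcription factor whose translation this favours. miR-218 is known as an abundant miRNA of motor neurons and a regulator of Slit and Robo signalling, and miR-383 is mostly studied in testis and in tumours.

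Each miRNA was located within an intron of a protein-coding gene on the same strand (GENCODE annotation of GRCm38). Mir383 was at chr8:38252133-38252202, minus strand, in intron 1 of Sgcz, which encodes zeta-sarcoglycan, a member of the sarcoglycan family of muscle membrane proteins. That intron spanned 707.667 kb in the annotated transcript of 8 exons. miR-218-5p can be made from 2 genes. Mir218-1 was at chr5:48223942-48224051, plus strand, in intron 16 of the 39-exon transcript of Slit2, and Mir218-2 at chr11:35616816-35616925, plus strand, in intron 14 of the 36-exon transcript of Slit3. Slit2 and Slit3 encode secreted guidance ligands of Robo receptors.

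The mature arms of miR-218 are shown because the 5p arm cannot tell its 2 genes apart whereas the 3p arms can. They are taken from RefSeq (GRCm38.p6) and written 5′ to 3′ with the seed in capitals.
miR-218-5p, from Mir218-1 and Mir218-2: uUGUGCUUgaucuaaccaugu
miR-218-1-3p, from Mir218-1: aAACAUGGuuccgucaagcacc
miR-218-2-3p, from Mir218-2: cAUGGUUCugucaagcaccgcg
The 5p arm was identical in both genes. The 3p arms were offset by 3 bases, which gave them different seeds, and differed in the 19 overlapping bases by C12U, counted from the 5′ end of miR-218-1-3p. Over the 110 bases of the hairpins, 39 positions differed. Of 1679 mature sequences searched, miR-7002-3p shared the seed of miR-218-5p and miR-496b that of miR-218-1-3p. Both had 0 reads in the 4 hairpin libraries of C2C12 and were not listed for the others, so among these sequences miR-218-5p was the only carrier of its seed that was read in the hairpin libraries.

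miR-383-5p was a moderately abundant miRNA of control myoblasts. In the shNC line it had 793 reads at day 0, or 70.0 CPM (counts scaled to the library's total of miRNA reads), with a 95% Poisson interval of 65.3 to 75.1. It had 125 reads at day 3 (10.4 CPM, 8.68 to 12.4). In the shPerk line it had 9 reads at day 0 (1.02 CPM, 0.468 to 1.94) and 2 reads at day 3 (0.212 CPM, 0.0257 to 0.766). Both shPerk libraries were thus below both shNC libraries, and their counting intervals did not overlap those of shNC. This is a description, since the day 0 values were used to choose miR-383-5p. By rank, miR-383-5p went from 207 of 1071 detected miRNAs in shNC at day 0 to 658 of 917 in shPerk at day 3. In the ATF4 experiment its deposited values, scaled in the same way as RPM, were 85.15 for vector cells and 16.68 for ATF4 cells. It was not listed for P19 cells.

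The 3p arm of miR-383 had 0 reads in all 4 hairpin libraries of C2C12. A count of 0 allows up to 3 reads, or 0.265 CPM in shNC and 0.341 CPM in shPerk at day 0, and 0.250 and 0.318 CPM at day 3. All 929 reads of the hairpin's arms in these libraries therefore came from the 5p arm (exact 95% binomial interval 99.6% to 100%). Intervals and limits cover counting error only, since reads without molecular identifiers are not independent molecules.

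miR-218-5p showed the reverse order. In the shNC line it had 2498 reads at day 0 (220.6 CPM, 212.1 to 229.5) and 10996 reads at day 3 (916.8 CPM, 899.8 to 934.1). In the shPerk line it had 25625 reads at day 0 (2912 CPM, 2876 to 2947) and 79858 reads at day 3 (8470 CPM, 8411 to 8529). It climbed from rank 148 of 1071 detected miRNAs in shNC at day 0 to rank 21 of 917 in shPerk at day 3, where it made up 0.847% of all miRNA reads. In the ATF4 experiment the values were 213.02 RPM for vector cells and 1126.1 RPM for ATF4 cells. In P19 cells it was at 2177.22 RPM in shNC and 3018.69 RPM in shPerk.

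**Figure D1:**
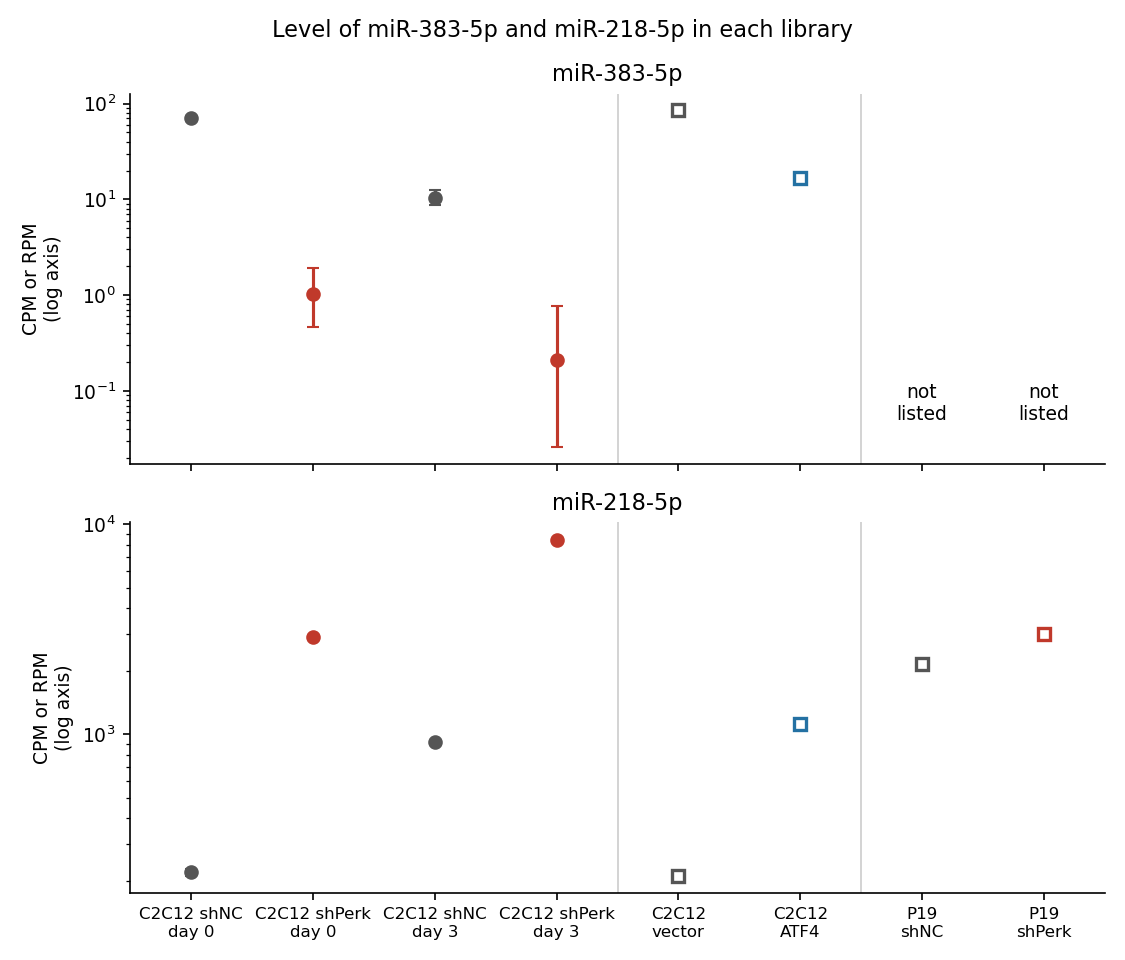
Level of miR-383-5p (top) and miR-218-5p (bottom) in each library, as CPM or RPM on a log axis. Filled circles are counts with 95% Poisson intervals and open squares are deposited RPM values without an interval, with controls in grey, shPerk in red and ATF4 in blue. In each C2C12 pair the shPerk or ATF4 library lies below its control for miR-383-5p and above it for miR-218-5p.

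Over all libraries, the levels of miR-218-5p were lowest in the vector and shNC day 0 libraries, followed by shNC at day 3, ATF4, P19 shNC, shPerk at day 0, P19 shPerk and shPerk at day 3. The tables were normalised separately, so the order across them is descriptive. The vector value of 213.02 RPM lay within the interval of the shNC day 0 value, and the day 0 shPerk and P19 shPerk values lay within a few percent of each other. For miR-383-5p the order from the top was vector, shNC at day 0, ATF4, shNC at day 3, shPerk at day 0 and shPerk at day 3. The intervals of the lowest pair, shPerk at day 0 and day 3, overlapped.

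The vector and shNC day 0 libraries, both controls before differentiation, give a rough measure of how far libraries of such cells differed. They are not replicates, since construct and table differed. The paper took vector cells short of full confluence and began differentiation at full confluence, so culture density may also have differed. The 4 skeletal muscle miRNAs described below summed to 19165 CPM in shNC at day 0 and to 2467 RPM with the vector. The log2 ratio of vector to shNC was 0.28 for miR-383-5p and -0.05 for miR-218-5p. Over 350 miRNAs averaging 10 CPM or more, the median absolute log2 ratio was 0.63 and the 90th percentile 1.81. Of these 350, 80 lay closer between the controls than miR-383-5p and 16 lay closer than miR-218-5p. Both libraries were controls in the comparisons that chose the members, so this closeness is not independent of the choice.

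Upon PERK knockdown at day 0, miR-383-5p was 61.7-fold lower in shPerk, a log2 fold change of -5.95 with a 95% interval of -7.10 to -5.03 from the reads. miR-218-5p was 14.5-fold higher, a log2 fold change of 3.86 (3.80 to 3.92). A change was called when the log2 fold change was beyond 1. This limit was passed upward by 15.6% and downward by 20.3% of 602 miRNAs with at least 1 CPM in either library. This comparison was used to choose miR-383-5p for the size of its fall, so nothing is read from its call or its rank. The fall of miR-383-5p ranked first of the 351 miRNAs averaging 10 CPM or more. Among all 602 it ranked 4, behind miR-128-2-5p, miR-384-3p and miR-6951-5p, which had 82, 17 and 15 reads in shNC and 0 in shPerk. The rise of miR-218-5p ranked 22 of 602.

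At day 3 of differentiation the same directions were measured in libraries not used for the choice. These libraries came from the same shNC and shPerk lines as those of day 0, so they are not independent of the choice of miR-383-5p. miR-383-5p was lower in shPerk by a log2 fold change of -5.22 (-8.35 to -3.40), and an exact binomial test on its 125 and 2 reads gave an adjusted p of 2.00e-23 (Benjamini-Hochberg over 575 miRNAs). That test compares the reads of these libraries and not the conditions. miR-218-5p was 11.6-fold higher, with a log2 fold change of 3.54 (3.51 to 3.57), and its p on reads was too small to be written as a number. At this time 21.9% of the miRNAs passed the limit upward and 23.0% downward, so passing it was common in this comparison. The members lay far out in that distribution. The fall of miR-383-5p ranked 3 of 575, and the rise of miR-218-5p ranked 30 of 575 and 17 of the 324 averaging 10 CPM or more.

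The knockdown change of miR-218-5p was somewhat smaller at day 3, with a difference in log2 fold change from day 0 of -0.32 (-0.38 to -0.25). For miR-383-5p the difference was 0.73 with an interval of -1.50 to 2.96, which is wide because shPerk at day 3 held 2 reads. With 1 library per condition these differences have no test between conditions.

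Differentiation of the shNC line moved both miRNAs in the directions seen upon knockdown. miR-383-5p fell 5.59-fold from day 0 to day 3 (log2 fold change -2.48, -2.77 to -2.21). The 793 reads in shNC at day 0 were among the values that chose miR-383-5p, so no test is given for changes over time. miR-218-5p rose 5.00-fold (log2 fold change 2.32, 2.26 to 2.38). Here 12.5% of 593 miRNAs passed the limit upward and 16.5% downward. The fall of miR-383-5p ranked 7 of 593, and the rise of miR-218-5p ranked 17. In the shPerk line miR-218-5p rose 3.73-fold (log2 fold change 1.90, 1.88 to 1.92), where 16.9% of 573 miRNAs passed upward and 16.9% downward. miR-383-5p had 9 and 2 reads there, a log2 fold change of -1.85 with an interval of -5.16 to 0.36. A difference was not detectable at this depth. The comparisons over time share libraries with the knockdown comparisons, so their values are not independent of each other.

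**Figure D2:**
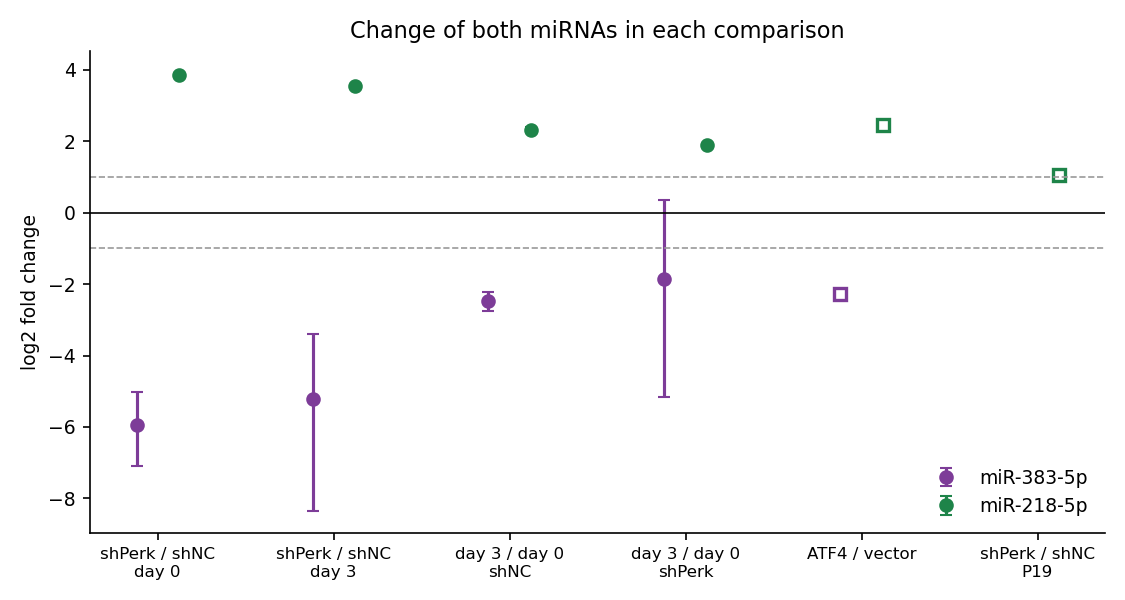
Log2 fold change of miR-383-5p (purple) and miR-218-5p (green) in each comparison. Bars are 95% intervals from the reads, open squares are RPM values without an interval, and dashed lines mark the limit of 1. miR-383-5p is below 0 and miR-218-5p above 0 throughout, and the interval of miR-383-5p crosses 0 for day 3 against day 0 in shPerk.

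The skeletal muscle miRNAs miR-1a-3p, miR-133a-3p, miR-133b-3p and miR-206-3p, which mark myogenic differentiation, moved differently. Their summed level was 19165 CPM in shNC and 3839 CPM in shPerk at day 0, and 88480 and 24312 CPM at day 3. All 4 were called higher over time in both lines, beside 12.5% of all miRNAs in shNC and 16.9% in shPerk. All 4 were called lower in shPerk at day 3, beside 23.0% of all. Their median log2 fold change in that comparison was -2.88 beside 0.01 over all miRNAs. miR-218-5p was thus higher both where the muscle miRNAs rose over time and where they were lower upon knockdown. miR-383-5p fell in both settings. With ATF4, 2 of the 4 muscle miRNAs were called higher and none lower, beside 14.0% and 8.60% of all miRNAs.

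With ATF4 overexpression miR-383-5p was 4.87-fold lower (log2 fold change -2.28) and miR-218-5p 5.50-fold higher (log2 fold change 2.46). Of 605 miRNAs listed, 14.0% passed the limit upward and 8.60% downward. This comparison chose both members, so the calls and ranks are a description. The fall ranked 4 of 605 and the rise 10 of 605. The counts behind these RPM values were not analysed here. Low RPM values were nearly all whole multiples of 1 fitted step. If that step is 1 read, 1 RPM was about 10.6 reads with the vector and 12.2 with ATF4. miR-383-5p would then be at roughly 900 and 200 reads, respectively. That the step is 1 read was not established.

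PERK knockdown and ATF4 overexpression act on the same signalling arm in opposite senses by design, and their comparisons share no library. Of 529 miRNAs tested in both, 73 passed the limit with ATF4 and with knockdown at day 3, which was 58.4% of the 125 past it with ATF4 and 32.9% of the 222 past it with knockdown. For comparison, the limit was passed by 222 of all 529 with knockdown and by 125 of all 529 with ATF4. Of the 73 past it in both, 43 were higher in both, 21 lower in both, and 9 moved in opposite directions. miR-218-5p was among the first and miR-383-5p among the second. Their directions with ATF4 were used to choose them, so their place here is a description without a test. With knockdown in P19 instead, 32 of 490 miRNAs passed the limit in both, 20 in the same direction and 12 in opposite directions. Perk and Atf4 mRNA and protein were not measured in the small RNA libraries, so the labels could not be checked against the targets.

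**Figure D3:**
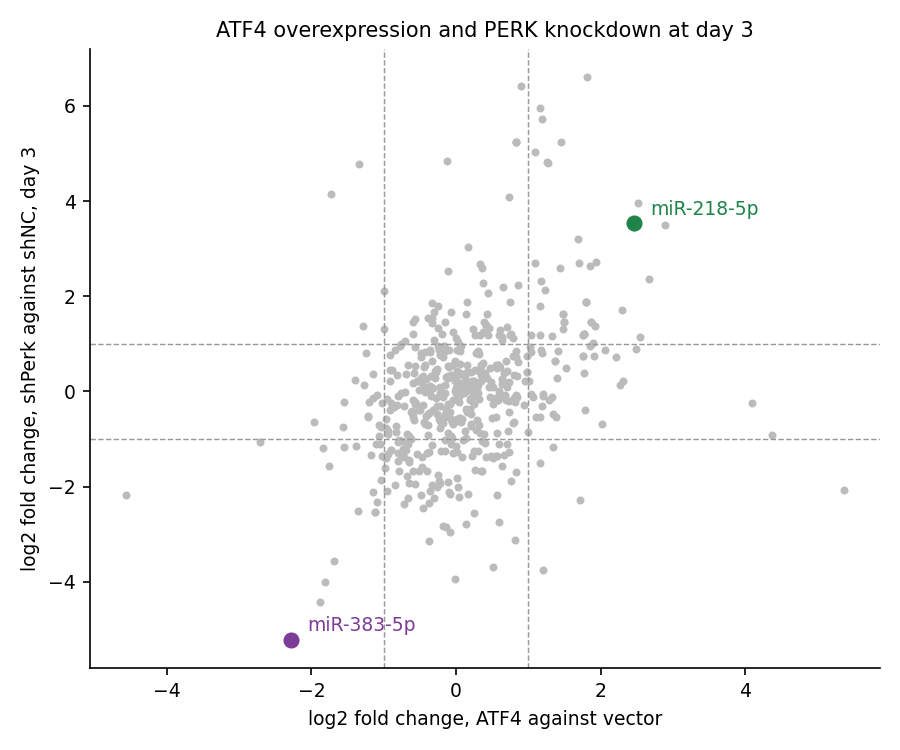
Log2 fold change with ATF4 against vector (horizontal) and with shPerk against shNC at day 3 (vertical) for 529 miRNAs tested in both, with dashed lines at the limit of 1. miR-383-5p lies in the lower left at -2.28 and -5.22, and miR-218-5p in the upper right at 2.46 and 3.54.

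In P19 cells miR-218-5p was 2.09-fold higher in shPerk (log2 fold change 1.06), where 17.1% of 696 miRNAs passed the limit upward and 17.5% downward. Its rise ranked 106 of 696. The call depended on the scaling, since the log2 fold change was 0.47 with total counts alone and 0.94 with upper-quartile scaling, both under the limit. Total-count scaling moved the median of all miRNAs from -0.06 to -0.63 here. The 6 embryonal carcinoma markers, from the miR-302 and miR-290 clusters, summed to 172116 RPM in shNC and 403102 RPM in shPerk, and their part in this scaling was not tested. Those 6 markers summed to at most 0.265 CPM in the C2C12 hairpin libraries and were not listed in the ATF4 experiment. Of the 4 skeletal muscle miRNAs, miR-206-3p was not listed for P19. The other 3 summed to 34.48 RPM in P19 shNC and 96.93 RPM in P19 shPerk, and all 3 were called higher in shPerk. The 3 epithelial markers summed to 198 RPM in P19 shNC and 836 RPM in P19 shPerk, and to between 1.38 and 4.36 CPM or RPM in C2C12.

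The 3p arms assign part of the miR-218 signal to a gene. miR-218-1-3p had 1 read in shNC and 9 in shPerk at day 0, and 1 in shNC and 17 in shPerk at day 3. miR-218-2-3p had 0 reads in all 4. All 28 3p reads therefore carried the Mir218-1 sequence (exact 95% binomial interval 87.7% to 100%), the copy within Slit2. Each shNC library gave only 1 of these reads, so the share describes mainly the shPerk libraries. At day 3 the log2 fold change of miR-218-1-3p was 4.57 with a counting interval of 2.09 to 10.15 (adjusted p = 1.96e-06, exact binomial test on reads). At day 0 it was 3.49 (0.82 to 9.12). Both arms were thus higher in shPerk. The 5p arm had between 2498 and 10996 reads for each 3p read, so how the 5p reads divide between the genes was not measured. The 3p arms were not listed for the ATF4 and P19 libraries.

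Intronic miRNAs as a group were compared with all miRNAs. Of 1620 mature miRNAs placed with every gene copy, 785 lay in introns of protein-coding genes on the same strand. Placing used the names of 1679 mature sequences, which held no miR-383, so miR-383-5p is not in this group. With ATF4, 12 of 220 intronic miRNAs tested passed the limit upward (5.46%, beside 14.0% of all) and 21 downward (9.55%, beside 8.60%), and their median was -0.11 beside -0.01 over all. With knockdown at day 3, 23 of 195 passed it upward (11.8%, beside 21.9% of all) and 48 downward (24.6%, beside 23.0%), and their median was -0.08 beside 0.01. In P19 the balance was the other way, with 41 of 206 upward (19.9%, beside 17.1%) and 12 downward (5.83%, beside 17.5%) and a median of 0.10 beside -0.06. The shares of all miRNAs include some that were not placed. Among the other placed miRNAs, 13.1% passed the limit upward and 8.24% downward with ATF4. These shares were 26.4% and 21.9% with knockdown at day 3, and 16.9% and 27.7% in P19. The host mRNAs Sgcz, Slit2 and Slit3 were not measured. The letters TGATGNAA, the core of C/EBP-ATF composite elements bound by ATF4, were searched on both strands of RefSeq promoter windows and were present in 3.97% of 32851. They were not in the windows of Slit2 or Slit3, which says nothing of binding elsewhere, and Sgcz had no window in the table.

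The miRNAs with the most similar pattern were found as the smallest root mean square difference over 4 log2 fold changes (knockdown at day 0 and day 3, differentiation of shNC, and ATF4) among 331 candidates. The ATF4 changes chose both members and the day 0 change chose miR-383-5p, so the likeness is a description. For miR-218-5p these were miR-148a-3p (0.42), miR-9-5p (0.47) and miR-9-3p (0.64), against a median of 3.07 over all. miR-148a-3p went from 577 to 5127 CPM upon knockdown at day 0 and from 580 to 4132 RPM with ATF4. miR-9-5p, abundant in the nervous system, went from 173 to 2641 CPM and from 76.0 to 236 RPM. In P19, outside the 4 changes used, miR-9-5p was at 3359 RPM in shNC and 1429 RPM in shPerk, whereas miR-218-5p was higher in shPerk. miR-124-3p, the defining miRNA of neurons, had 0 reads in all 4 hairpin libraries of C2C12. The 3 neuronal markers together therefore follow miR-9-5p, at 173, 2641, 551 and 4044 CPM in shNC and shPerk at day 0 and then at day 3. The 3 blood markers summed to 8.74 and 234 CPM at day 0 and to 7.67 and 78.4 CPM at day 3, and to 65.4 RPM with the vector against 45.04 RPM with ATF4. Among them miR-142a-3p was at 2.47 and 225 CPM in shNC and shPerk at day 0 and at 5.00 and 70.5 CPM at day 3. miR-223-3p had at most 1 read in these hairpin libraries. miR-451a was at 6.27 and 9.09 CPM at day 0 and at 2.67 and 7.74 CPM at day 3. In the ATF4 experiment miR-451a made up most of the sum, at 56.33 RPM with the vector and 42.9 RPM with ATF4. The part of other cell types in the miR-218-5p rise was not tested.

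For miR-383-5p the closest were miR-675-3p (1.14) and miR-675-5p (1.32), arms of the hairpin within the imprinted H19 RNA, and, less closely, miR-129-5p (2.07), against a median of 4.43. None was as near as those of miR-218-5p. miR-675-3p fell from 46.6 to 1.82 CPM upon knockdown at day 0 and measured 19.4 RPM in vector cells and 4.93 RPM in ATF4 cells. miR-129-5p came nearest to miR-383-5p over differentiation of shNC, with log2 fold changes of -2.36 and -2.48. Upon knockdown at day 3 it was at -2.16 beside -5.22 for miR-383-5p, and with ATF4 it was nearly level at 1140 and 1036 RPM.

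**Figure D4:**
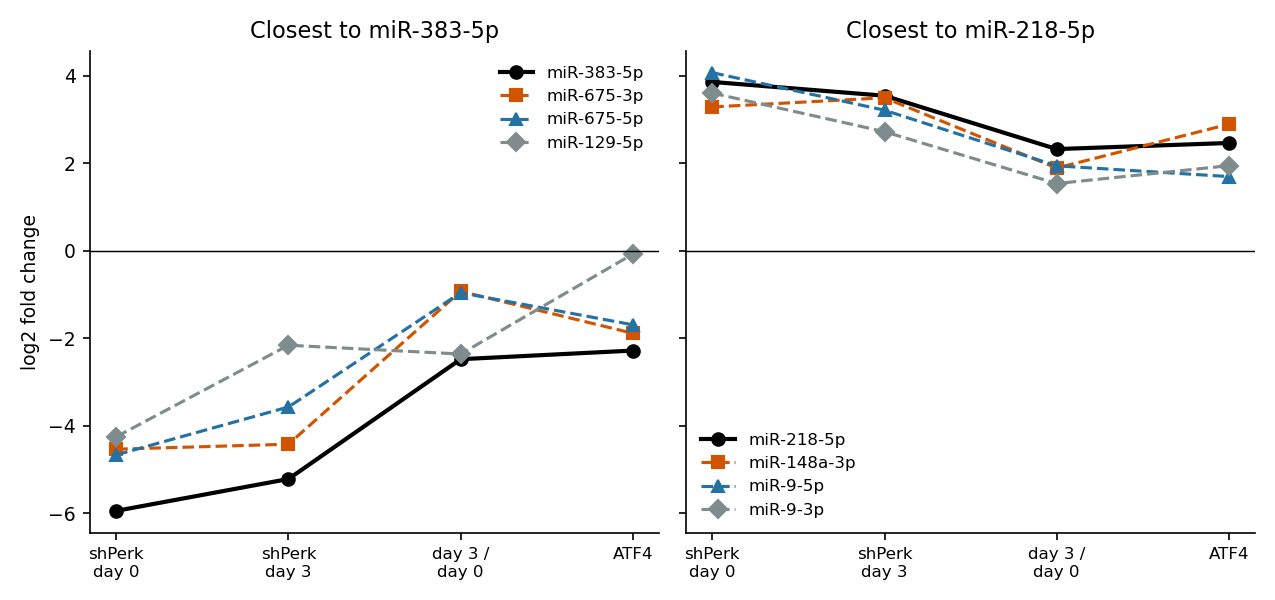
Log2 fold changes of miR-383-5p (left) and miR-218-5p (right) and of the 3 miRNAs closest to each, in knockdown at day 0, knockdown at day 3, differentiation of shNC and ATF4 overexpression. Lines connect values of 1 miRNA and do not stand for a time course. The 3 miRNAs on the right lie near miR-218-5p, whereas miR-129-5p lies apart from miR-383-5p upon knockdown at day 3 (-2.16) and with ATF4 (-0.08).

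A list of 10 miRNAs linked to the unfolded protein response by earlier work (miR-211-5p, miR-204-5p, both arms of miR-708, miR-30c-2-3p, miR-214-3p, miR-199a-5p, miR-106b-5p, miR-93-5p and miR-25-3p) gives the pathway as background. With ATF4, 1 of 7 tested was called higher and 0 lower (beside 14.0% and 8.60% of all), and the median was 0.02 on the log2 scale beside -0.01 over all. That one was miR-708-5p, listed at 0 for the vector library and at 22.27 RPM for the ATF4 library. With knockdown, 1 of 7 was higher and 0 lower at day 0 (beside 15.6% and 20.3% of all miRNAs), and 0 of 9 were higher and 2 lower at day 3 (beside 21.9% and 23.0%). The 2 were miR-204-5p, with 13 reads in shNC and 1 in shPerk, and miR-93-5p, with a log2 fold change of -1.26. Over time 3 of 9 were higher and 0 lower in shNC (beside 12.5% and 16.5% of all), and 1 of 8 was higher and 1 lower in shPerk (beside 16.9% each way). In P19, 2 of 10 were higher and 0 lower (beside 17.1% and 17.5%).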

How the data were processed

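For the C2C12 hairpin lines the authors deposited a raw count of reads per mature miRNA, made without normalization, with totals of 8800977 to 11993448 per library. For ATF4 and P19 the deposited values are RPM, which the authors scaled to each library's miRNA reads. The submitters' processing notes name mm10 and GRCm38. The authors assigned reads with bowtie, whose version and settings are not given in the sources used here, and how reads matching more than 1 hairpin were counted is not given either. Columns holding the authors' own fold changes and p-values were not used. The shNC columns that occur in several tables were identical and counted once. With 1 library per condition there is no replicate error. miRNAs with at least 1 CPM or RPM in 1 of the 2 libraries were scaled by TMM (edgeR 4.0.16, R 4.3.3), RPM values of 0 were set to 1, and log2 fold changes were called beyond 1. Ratio intervals (95%, Clopper-Pearson) and two-sided exact binomial tests with Benjamini-Hochberg adjustment used reads, and tests are printed only where the choice of members used neither library. Fits were tested on simulated data. Alternatives were other scalings (DESeq2 1.42.0 among them), filters and prior counts. The named miRNAs were the members, their other arms, shared seeds, the 3 most similar patterns and the lists, besides 3 miRNAs that fell further at day 0, named after their values were seen. Members and lists were chosen with earlier results of these data known.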

Additional observations from a re-analysis of the deposited data

How the results depend on the processing

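Libraries could not be paired by replicate because each condition is 1 library with no replicate number to share. For the same reason leaving 1 out leaves no comparison. A fit of both hairpins with day as a term would have 1 residual degree of freedom among libraries and was not run, since it includes the day 0 comparison that chose miR-383-5p. miR-383-5p and miR-218-5p kept their direction and their side of the fold limit in C2C12 under each scaling, filter and prior count that gave a value. The exact test of edgeR with an assumed coefficient of variation is given below as totals only. It called no miRNA lower over time in either line, so the fall of miR-383-5p over time was not among its calls. miR-383-5p ranged from -6.16 to -5.72 for knockdown at day 0, -5.54 to -4.49 at day 3, -2.75 to -2.39 for differentiation of shNC and -2.66 to -2.17 with ATF4. In the shPerk line over time it ranged from -2.20 to -1.29 and could not be fitted with a filter at 10 CPM. miR-218-5p ranged from 3.64 to 3.91, 3.21 to 3.54, 2.05 to 2.41 and 2.09 to 2.46 in the same order, and from 1.54 to 1.99 in the shPerk line. In P19 it was 0.47 with total counts and 0.94 with upper-quartile scaling. The day 3 minus day 0 difference of its knockdown change was -0.51 with total counts and -0.41 with upper-quartile scaling.

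The number of miRNAs past the limit depended on the filter. For knockdown at day 0 it was 216, and 588 with no filter, 126 with a filter at 10 and 56 when an adjusted p from the exact test of edgeR was also required, with a coefficient of variation of 0.4 taken as given. The same settings gave 258, 627, 163 and 51 for knockdown at day 3, 172, 556, 90 and 7 for differentiation of shNC, and 194, 511, 104 and 1 for shPerk. With ATF4 137 became 90 with a filter at 10 and 86 with a prior count of 2. With that test the calls were mostly higher, 40 higher and 16 lower for knockdown at day 0, 38 and 13 at day 3, 7 and 0 for differentiation of shNC and 1 and 0 for shPerk, where the fold limit alone gave 94 and 122 at day 0. By the fold limit, higher and lower calls were 126 and 132 at day 3 and 93 and 166 with total counts. They were 74 and 98 against 51 and 140 for differentiation of shNC, 97 and 97 against 58 and 161 for shPerk, and 119 and 122 against 44 and 245 in P19. With ATF4 they were 85 and 52, and 51 and 116 with upper-quartile scaling. Total-count scaling took the overall median of log2 ratios from -0.06 to -0.19 for knockdown at day 0, from 0.01 to -0.32 at day 3, from -0.04 to -0.30 for differentiation of shNC and from -0.05 to -0.40 for shPerk, and upper-quartile scaling took it from -0.01 to -0.38 with ATF4. The cause was not tested.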
